A study of Mus musculus with 6 samples.

Results

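The alpha-class glutathione S-transferases of the mouse were examined in liver, with 6 genes listed as members: Gsta1, Gsta2, Gsta3, Gsta4 and the closely related Gm10639 and Gm3776. Their probes were taken as every non-control probe whose RefSeq accession belongs to 1 of these genes. This gave 5 of the 56605 probes on the array, which stand for 4 of the 6 genes, since no probe carried an accession of Gsta1 or Gm3776, and these genes were not analysed here. Liver RNA came from male mice that were 12 weeks old when feeding began, 3 fed granulated regular food alone (control) and 3 fed 75% regular food with 25% soy bean powder (soy), both for 4 weeks. Each mouse gave 1 piece of the right hepatic lobe and 1 array with a single dye. The soy chow therefore also held less regular food, and a strain is not given in the sources used here. Whole tissue was measured, so that a change in the number of cells of a type and a change in RNA per cell cannot be told apart.

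Glutathione S-transferases couple the tripeptide glutathione to electrophilic compounds, which makes these easier to export. The alpha class is abundant in hepatocytes, where its enzymes act on xenobiotics, bilirubin and products of lipid peroxidation. Rodent alpha-class genes are known to be induced by electrophiles through the transcription factor NRF2, and xenobiotic receptors such as CAR, PXR and AHR also act on them. Levels are given as normalized signal on the log2 scale, and a change is the mean of the soy arrays minus the mean of the control arrays on that scale. A probe passed when its p-value from limma, adjusted by the Benjamini-Hochberg method over all probes, was under 0.05 and its fold change was above 1.5 or under 0.66.

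Of the 5 alpha-class probes, 1 passed, higher in soy. Over all probes 0.350% passed, 0.208% higher and 0.141% lower in soy. The passing probe belonged to Gm10639. The probe of Gsta2 had a change of like size with an adjusted p above the threshold, and the 2 probes of Gsta3 and the probe of Gsta4 had smaller changes. For 4 of the 5 probes the normalized signal of every soy array lay above that of every control array. Over all probes the groups were separate in this direction for 7.73% and in the other for 10.3%, together 18.0%. All 5 probes were well above background on all 6 arrays and none was saturated. Across the whole array, fewer spots were well above background in soy (31308, 31988 and 32498) than in control (37010, 36366 and 38163), and the part of this in the changes was not tested.

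Gm10639 (NM_001122660) encodes a predicted alpha-class enzyme and lies on chromosome 9 in a row of related genes. In the RefSeq annotation the order there is Gsta4, Gsta1, Gm3776, Gm10639 and Gsta2, with pseudogenes and the Omt2a and Omt2b genes between them, while Gsta3 is on chromosome 1. The normalized signal of the Gm10639 probe was 12.58, 11.77 and 12.61 on control arrays 1 to 3. On soy arrays 1 to 3 it was 14.94, 14.10 and 14.64. The lowest soy array lay well above the highest control array, and the array numbered 2 was the lowest of its group in both diets. The means were 12.32 ± 0.47 in control and 14.56 ± 0.42 in soy (SD, n = 3 arrays per group), and by limma Gm10639 rose by 2.24 (SE 0.28, adjusted p = 0.0316). This is a 4.72-fold difference with a 95% interval of 3.00 to 7.43. The probe did not pass in any of the 6 fits that left out 1 array, with changes of 1.97 to 2.47 and adjusted p-values of 0.0501 to 0.121 by limma.

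Gsta2 (NM_008182), a classical drug-inducible alpha-class subunit, showed the same arrangement. Its normalized signal was 13.09, 11.86 and 11.78 on control arrays 1 to 3 and 15.10, 14.21 and 14.32 on soy arrays 1 to 3. The groups did not overlap, and array 1 was the highest of its group in both diets. The means were 12.24 ± 0.73 and 14.54 ± 0.48 (SD, n = 3 arrays per group). The change was 2.30 (SE 0.38), a 4.93-fold difference with a 95% interval of 2.67 to 9.08, and it did not pass in limma (adjusted p = 0.0658). With 1 array left out, the change ran from 2.02 to 2.72 and its adjusted p in limma from 0.0351 to 0.193. Among these fits it passed only without control 1, the control array with the highest Gsta2 signal (2.72, adjusted p = 0.0351).

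Gsta3, which detoxifies aflatoxin epoxide in the mouse liver, was measured by 2 probes of different transcripts. On the brighter probe (NM_001077353) the normalized signal was 17.66, 17.52 and 17.60 in control and 17.89, 17.96 and 17.90 in soy. On the dimmer probe (NM_001288617) it was 17.61, 17.39 and 17.51 in control and 17.90, 17.75 and 18.08 in soy. On either probe every soy array was above every control array in normalized signal, by a small margin. Before normalization the groups overlapped on both probes. The median intensity of control 1 (245382 on the brighter and 236027 on the dimmer probe) lay above that of soy 1 (222902 and 224215). The changes were 0.32 (SE 0.093) and 0.41 (SE 0.12), or 1.25-fold and 1.33-fold, and neither passed in limma (adjusted p = 0.239 and 0.252). The median intensities of these spots were at most 32.5% and 33.0% of the value at which a spot saturates.

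Gsta4 (NM_010357) encodes the alpha-class enzyme with high activity towards 4-hydroxynonenal, an aldehyde formed from peroxidized lipids. Its normalized signal was 10.60, 11.72 and 11.71 in control and 12.13, 11.64 and 12.12 in soy. Control 1 was the lowest array, and soy 2 lay below control 2 and control 3, so that the groups overlapped. The change was 0.62 (SE 0.31, 95% interval -0.093 to 1.33), which did not pass in limma (adjusted p = 0.498).

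**Figure D1:**
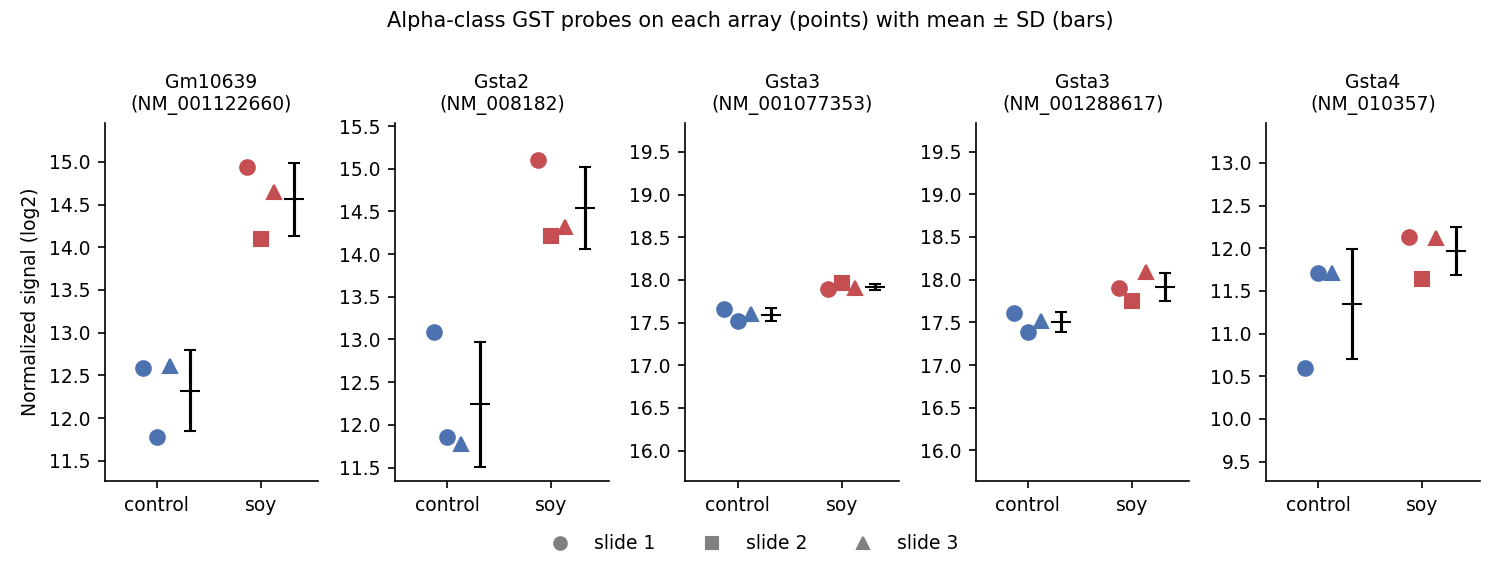
Normalized signal (log2) of the 5 alpha-class probes on each array, control in the left and soy in the right column of each panel, with the mean ± SD of 3 arrays as bars and the slide as the marker shape. Gm10639 and Gsta2 were higher on all 3 soy arrays than on any control array, and only for Gsta4 did the groups overlap.

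The arrays lie on 3 slides. Slide 1 holds both of the first 2 control arrays together with soy 1, slide 3 holds the third array of each diet, and slide 2 holds soy 2 alone. Within slide 1 the change was 2.76 for Gm10639, 2.63 for Gsta2 and 0.97 for Gsta4, and within slide 3 it was 2.04, 2.54 and 0.40. For the brighter Gsta3 probe the values were 0.30 within either slide. All of these were higher in soy, as over all 6 arrays. With slide as a block in limma, the change was 2.45 (adjusted p = 0.120) for Gm10639 and 2.59 (adjusted p = 0.141) for Gsta2, and no alpha-class probe passed.

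Whether the members changed unequally was tested on the difference between the brighter probes of 2 genes within each array, soy against control, over 6 pairs of genes. The two-sided exact permutation test of 3 against 3 arrays cannot go below p = 0.1. The change of Gsta3 minus that of Gm10639 was -1.92, the change of Gsta4 minus that of Gm10639 was -1.62, and the change of Gsta2 minus that of Gsta3 was 1.98, each at the smallest p the exact test allows (p = 0.1, adjusted p = 0.2). For Gsta2 against Gsta4 the difference was 1.68 (exact p = 0.2, adjusted p = 0.3). No pair of genes passed after adjustment, and none could, since the adjusted p cannot fall below the smallest exact p. The test therefore cannot show whether the members changed unequally. Gsta2 and Gm10639 differed in their change by 0.061 (exact p = 0.8), and the difference between them on single arrays ran from -0.83 to 0.50 in control and from -0.33 to 0.16 in soy. Gsta3 and Gsta4 differed by -0.30 (exact p = 0.5, adjusted p = 0.6).

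Across the 6 arrays the signals of Gm10639 and Gsta2 had a Pearson r of 0.94, and 0.57 after the mean of each diet was removed. For Gm10639 with the brighter and the dimmer Gsta3 probe r was 0.94 and 0.93 over all arrays, and 0.29 and 0.70 within the diets. For Gm10639 with Gsta4 these values were 0.56 and -0.076, and for the 2 Gsta3 probes 0.86 and 0.22. For Gsta4 with Gsta2 they were 0.36 and -0.63, with the brighter Gsta3 probe 0.39 and -0.85, and with the dimmer one 0.47 and -0.16. The arrays share their normalization, and r over all 6 carries the difference between the diets. Among 13511 genes with a probe well above background on all arrays, outside the alpha class, the 5 genes most like Gm10639 by r over the 6 arrays were Slc35f2 (0.990), a solute carrier, Pcsk6 (0.987), a proprotein convertase, Gstm4 (0.985), a mu-class transferase, Meig1 (0.985), a gene known from spermatogenesis, and Shroom3 (0.984), an actin-binding protein. Their changes were 1.56, 0.67, 1.19, 1.60 and 0.83 in that order, and these are no independent result, since the genes were chosen for following a gene that separates the diets. With the processed signal after 75th-percentile scaling, Slc35f2 changed by 2.76 and Meig1 by 2.55.

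The promoters of Gm10639 and Gsta2, the members with the largest changes, are shown to compare the sequence in front of genes whose changes were of like size. The RefSeq sequences (GRCm38.p6) run from 250 bases before to 50 bases after the start of each gene and are written 5′ to 3′ on the strand of the gene, which is + for Gm10639 (chr9:78289678-78289977) and - for Gsta2 (chr9:78347096-78347395). Capitals mark runs of at least 12 bases that occur unchanged in the other promoter, 105 bases or 35% of each.
Gm10639: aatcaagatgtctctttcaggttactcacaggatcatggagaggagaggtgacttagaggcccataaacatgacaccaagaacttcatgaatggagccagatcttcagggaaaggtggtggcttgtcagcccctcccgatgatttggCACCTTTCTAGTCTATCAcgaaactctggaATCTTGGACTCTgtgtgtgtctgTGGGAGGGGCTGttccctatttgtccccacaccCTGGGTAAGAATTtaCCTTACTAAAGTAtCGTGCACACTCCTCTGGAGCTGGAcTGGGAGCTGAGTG
Gsta2: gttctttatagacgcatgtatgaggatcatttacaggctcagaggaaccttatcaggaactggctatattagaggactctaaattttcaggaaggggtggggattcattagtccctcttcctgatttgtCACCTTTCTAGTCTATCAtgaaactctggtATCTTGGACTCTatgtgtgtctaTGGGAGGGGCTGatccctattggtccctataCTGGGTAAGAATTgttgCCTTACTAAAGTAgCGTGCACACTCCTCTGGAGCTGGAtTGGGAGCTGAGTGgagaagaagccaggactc
The shared runs lie in the part of the window nearer to the gene start, and 80.9% of the aligned bases are identical. The promoters of the unmeasured neighbours are closer still. Those of Gsta1 and Gm3776 share 97.9% and 98.7% of their aligned bases with that of Gm10639, in unbroken runs of up to 97 and 162 bases. The Gsta3 promoter shares no run of more than 9 bases with any of the other 4, and the table held no Gsta4 promoter. Transcripts of genes this alike can share probe targets, so that the Gm10639 and Gsta2 probes could also bind RNA of Gsta1, Gm3776 or each other's gene. Probe sequences were not used here and cross-hybridisation was not tested, so these 2 probes cannot be counted as independent measurements of separate genes.

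Motifs were searched on both strands of these 5 promoter windows. The core of the antioxidant response element bound by NRF2 (TGACNNNGC) was found in Gsta3 at position -121 from the gene start and in 12.4% of all 32851 promoters. The xenobiotic response element bound by AHR (TNGCGTG) was found in Gsta2 at -9 and in Gm3776 at 10, and in 5.07% of all promoters. Its inner letters GCGTG, which overlap that motif, were also found in Gsta1 at -2, but not in Gm10639, and in 32.4% of all promoters. Sequence further upstream than this window was not searched.

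The other glutathione S-transferases were read from lists of genes, each gene by its brightest probe. A gene was counted as passed on the strength of any 1 probe, which held for 0.532% of all 22911 genes with a symbol and for 0.340% towards higher signal in soy. Of the 4 measured alpha-class genes, 4 had a higher mean in soy. The median change was 1.43 with Gm10639 and Gsta2 taken as separate genes and 0.62, the change of Gsta4, with these 2 counted once, where the median over all genes was -0.0056. Without control 1, Gsta4 changed by 0.25 and the median with these 2 counted once was 0.36, the change of Gsta3. Of the 7 mu-class genes, 3 passed on at least 1 probe, with a median over the class of -0.052 by the brightest probes and of 0.67, the change of Gstm3, with Gstm6 taken by its dimmer probe. These were Gstm1 and Gstm4, both higher in soy, and Gstm6, whose probes disagreed, as did those of Gstm5 (-0.052 on the brighter and 0.60 on the dimmer one, neither passing in limma). By the brightest probes 3 of the 7 were higher without overlap, beside 9.66% of all genes. Lower without overlap were 2, Gstm6 and Gstm7 (-0.62, adjusted p = 0.212 in limma), beside 10.8%. Cross-hybridisation between mu-class genes was not tested either. Of 15 genes of the other classes (omega, pi, theta, kappa, zeta, microsomal and the like) 0 passed, with a median of 0.085 and changes between -0.37 and 0.68. With the processed signal after 75th-percentile scaling 3 of them passed and the median was 0.25. After the 75th-percentile shift alone 0 passed and the median was 0.17. In that list no array had Gstt4, Hpgds or Mgst2 well above background.

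The mu-class enzymes work on many of the same electrophiles as the alpha class. Gstm1 (NM_010358) had a normalized signal of 17.08, 16.62 and 16.76 in control and 17.78, 17.75 and 17.80 in soy on its brightest probe. Its change was 0.96 (adjusted p = 0.0398 in limma), and a dimmer probe gave 1.20 (adjusted p = 0.0287). Gstm4 (NM_026764) had signals of 13.24, 13.12 and 13.43 in control and 14.54, 14.32 and 14.49 in soy. Both genes were higher on every soy array than on any control array. The 2 probes of Gstm6 (NM_008184) pointed in opposite directions. The brighter one changed by -0.94 (SE 0.14, adjusted p = 0.0515 in limma) and the dimmer one rose by 1.07 (SE 0.11, adjusted p = 0.0169), neither with overlap between the groups, so that no direction is given for Gstm6. With the processed signal after 75th-percentile scaling 6 mu-class genes passed, with slide as a block 0, and with 1 array left out 3 passed without control 3, 1 without control 1 and 0 without control 2 or any 1 of the soy arrays.

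**Figure D2:**
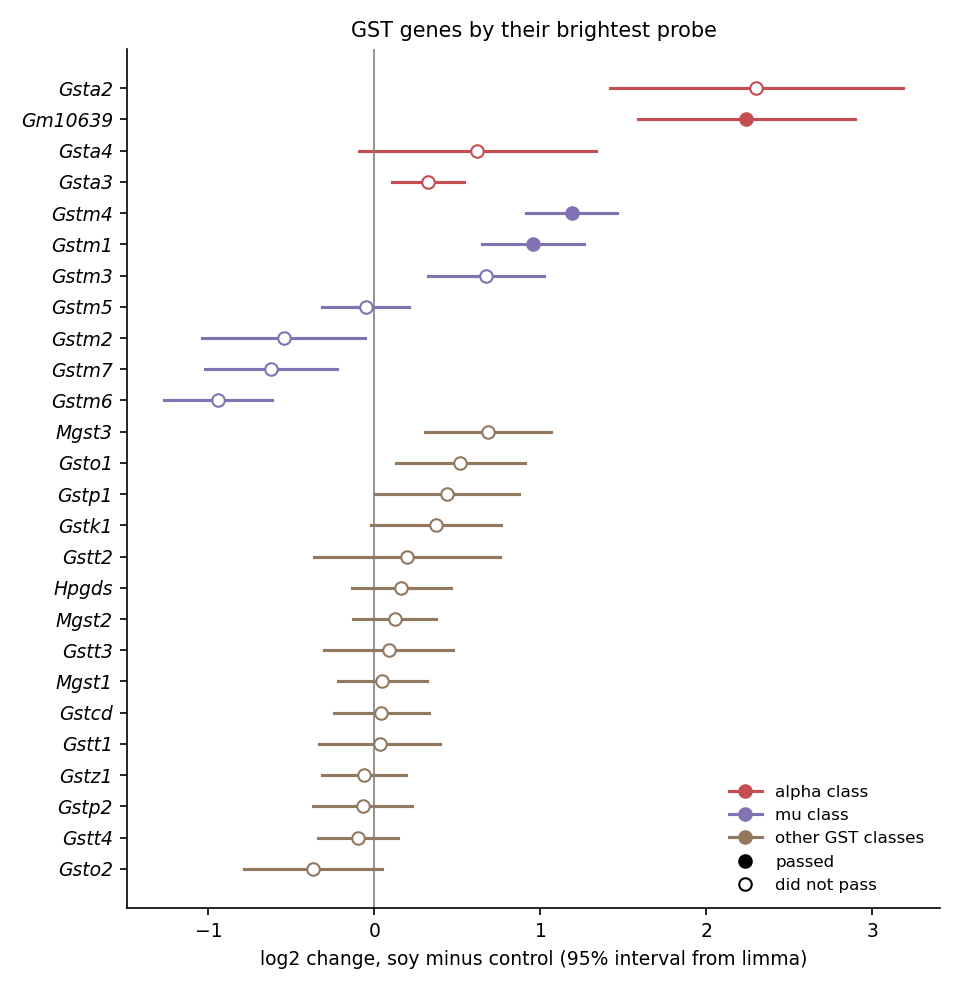
Change (log2, soy minus control) of each glutathione S-transferase gene by its brightest probe, with its 95% interval from limma, coloured by class and filled where that probe passed. Gsta2 (2.30) and Gm10639 (2.24) lie to the right of every other transferase gene, and Gstm6 is drawn by its brighter probe (-0.94).

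Genes that act before and after conjugation were read the same way. NRF2 regulators were measured by 7 genes, of which 0 passed. Nfe2l2, which encodes NRF2, changed by 0.25, its inhibitor Keap1 by 0.38 and the adaptor Cul3 by -0.12. The repressor Bach1 changed by -0.37, and the small MAF partners Maff, Mafg and Mafk by -1.18, 0.41 and -0.39. Their adjusted p-values in limma lay between 0.165 for Mafk and 0.795 for Cul3. Single arrays weighed on several of these values, since Maff changed by -0.65 without control 1, and Mafg by 0.25, Nfe2l2 by 0.11 and Cul3 by -0.032 without control 3, while Cul3 changed by -0.26 without control 2. Of 22 NRF2 targets outside the transferases, 4 passed, higher in soy, and the median change was 0.67. They were Ephx1 (1.22, adjusted p = 0.0473 in limma), the microsomal epoxide hydrolase, Ugdh (1.06, adjusted p = 0.0401), which makes the sugar donor of glucuronidation, Abcc3 (0.82, adjusted p = 0.0244), an exporter of conjugates, and Tkt (0.78, adjusted p = 0.0364), a pentose phosphate enzyme. The count moved with the setting. It was 11 of the 22 with the processed signal after 75th-percentile scaling, 7 among probes well above background only, 7 with trend and robust settings of eBayes, 0 with slide as a block or a normexp offset of 16, 1 without control 2 or control 3, and 0 without control 1 or any 1 of the soy arrays. Means were higher in soy for 19 of the 22, against 48.8% of all genes, and 14 had no overlap between the groups in that direction, against 9.66%. In the other direction 2 of the 22 had no overlap, G6pdx (-0.73), which feeds the pentose phosphate pathway, and Hmox1 (-0.34), which degrades haem, against 10.8% of all genes.

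Glutathione synthesis and turnover held 18 genes, of which 0 passed, with a median of 0.024 (0.16 with the processed signal after 75th-percentile scaling). Gclc and Gclm, the subunits of the rate-limiting enzyme, changed by 1.44 (adjusted p = 0.0529 in limma) and 0.66 (adjusted p = 0.0591), without overlap between the groups. Both passed with that signal, among probes well above background only, and with trend and robust settings of eBayes, where 5, 3 and 2 genes of the list passed, and Gclc also passed after the 75th-percentile shift. The importer subunit Slc7a11 and the transpeptidase Ggt1 were well above background on no array. Gclc, Gclm, Gsr and Slc7a11 of this list are also counted among the NRF2 targets. Of 6 genes of conjugate export, 1 passed, which was Abcc3, and the median was 0.45. Means were higher in soy for 6 of 6, beside 48.8% of all genes, and 5 were higher without overlap, beside 9.66%. Abcc2, Abcc3 and Abcc4, each among those 5, are also counted among the NRF2 targets, so these lists are not independent. Of 16 genes for aldehydes and lipid peroxides, 1 passed, Glo1, the glyoxalase that uses glutathione to remove methylglyoxal. Glo1 changed by 1.27 (adjusted p = 0.0635 in limma) on its brightest probe and rose by 1.22 (adjusted p = 0.0310) and 1.14 (adjusted p = 0.0326) on the dimmer ones, while the median of the list was 0.13. With the processed signal after 75th-percentile scaling 3 genes of export and 3 of the aldehyde list passed, with slide as a block 0 genes of these lists passed, and with 1 array left out neither Abcc3 nor Glo1 passed in any of the 6 fits. Another gene of the aldehyde list did pass without control 3.

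Of 6 xenobiotic receptors and partners, 1 passed, Nr1i3, which encodes CAR. It changed by 0.85 (adjusted p = 0.0877 in limma) on its brightest probe and rose by 0.87 (adjusted p = 0.0426) on the other. Nr1i2, which encodes PXR, changed by 0.19, Ahr by 0.047, its partner Arnt by 0.13, Ppara by 0.066 and Rxra by -0.040, with adjusted p-values of 0.724 or more. Single arrays moved these small values, since Nr1i2 ranged from 0.050 to 0.41 and Arnt from 0.040 to 0.23 with 1 array left out, and Ahr, Ppara and Rxra turned sign in some of those fits. The Nr1i3 call was kept without control 3 and lost in the other 5 such fits and with slide as a block. Of 15 measured CAR and PXR targets outside the transferases, 1 passed, Ephx1, which is also counted among the NRF2 targets, and the median was -0.22, with 4 higher and 5 lower in soy without overlap, beside 9.66% and 10.8% of all genes. Of these 4, Sult2a1 was well above background on no array. The number of CAR and PXR targets that passed was 5 with the processed signal after 75th-percentile scaling. It was 0 with cyclic loess, a normexp offset of 16, and slide or replicate number as a block. With 1 array left out it was 1 without control 2 or control 3 and 0 without control 1 or any 1 of the soy arrays. Of 6 AHR targets 0 passed, with a median of -0.047 that became 0.10 after a 75th-percentile shift of the arrays. With the processed signal after 75th-percentile scaling 2 of these targets passed and the median was 0.12. Over the 10 lists other than the alpha class, 9 of 108 measured genes passed, against 0.532% of all 22911 genes with a symbol. Of these 9, Gstm6, Nr1i3 and Glo1 passed only on a probe that was not their brightest.

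**Figure D3:**
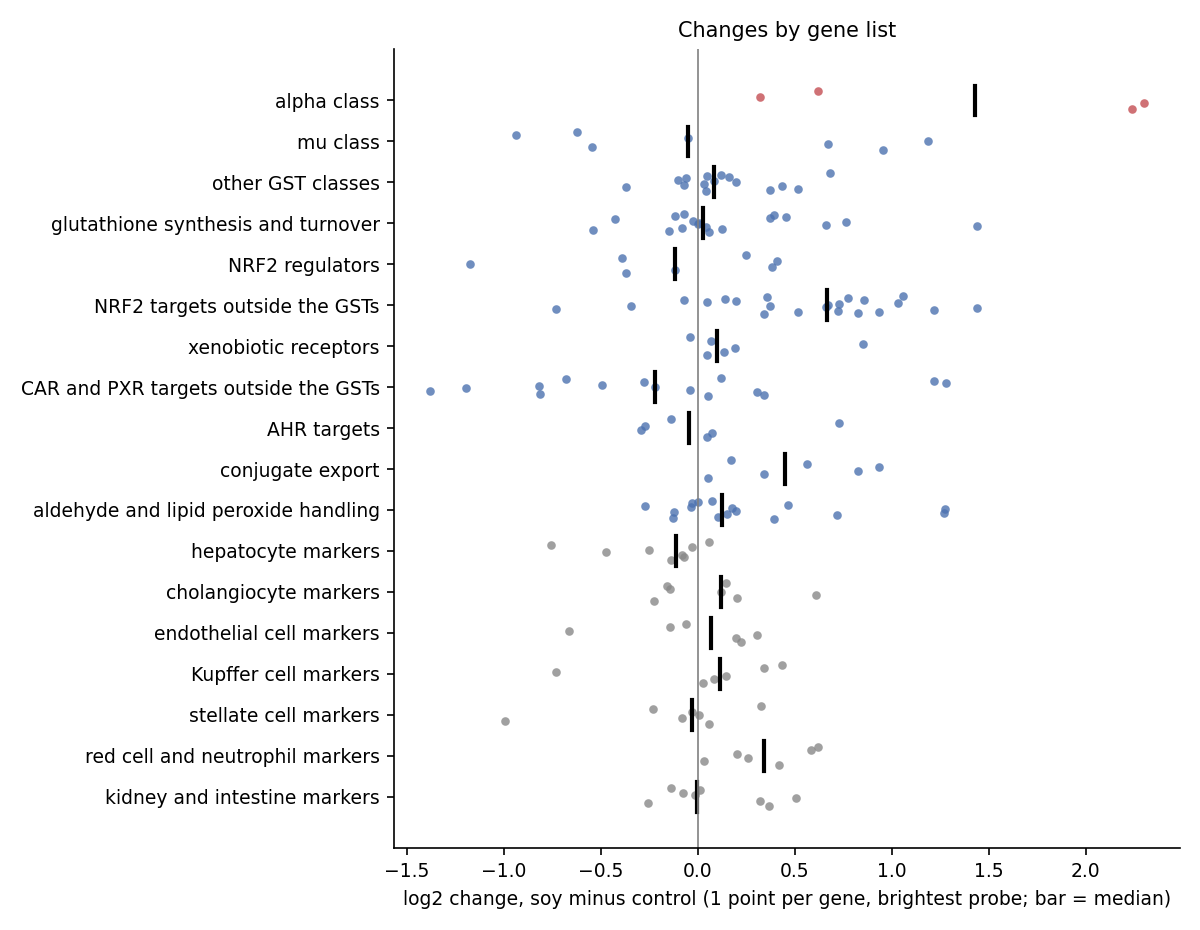
Change (log2, soy minus control) of every gene of the 18 lists by its brightest probe, with the alpha class in red, other pathway lists in blue, cell type markers in grey and the median of each list as a black bar. The bar of the alpha class stands at 1.43 with Gm10639 and Gsta2 drawn as separate genes. The median is 0.62 with these 2 counted once, and 0.36 then without control 1. The bar of NRF2 targets stands at 0.67 and that of conjugate export at 0.45, and these lists share Abcc2, Abcc3 and Abcc4. The cell type lists have medians between -0.11 and 0.34.

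The labelled tissue was checked by marker genes, and of the 7 marker lists 0 genes passed in limma. Hepatocyte markers were well above background on all arrays, with Alb the brightest probe. Brightness does not rank transcripts of different probes by abundance. Their summed normalized signal was 1940750, 1995320 and 1922100 in control and 1929460, 1725030 and 1799540 in soy, with 7 of 8 means lower in soy and a median of -0.11, whereas 3 of 8 means were higher with cyclic loess or with the processed signal after 75th-percentile scaling. Red cell and neutrophil markers had 6 of 6 means higher in soy and a median of 0.34, with Hba-a1 the brightest probe. Their sum was 206660, 151203 and 226791 in control and 166017, 362351 and 197523 in soy, so that soy 2 stood highest and the groups overlapped. Without soy 2, Hba-a1 changed by -0.068, Gm10639 by 2.47 and Gsta2 by 2.47. The neutrophil genes S100a8 and S100a9 had the largest changes of this list, 0.58 and 0.62. S100a8 was 7.96, 9.05 and 8.61 in control and 9.01, 9.29 and 9.07 in soy, and S100a9 was 9.09, 10.36 and 9.52 in control and 10.08, 10.44 and 10.31 in soy. Control 1 was lowest for both, control 2 lay within the soy values, and the part of these cells in the alpha-class changes was not tested.

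Medians were 0.12 for cholangiocyte markers (Spp1 the brightest, Epcam well above background on no array) and 0.067 for endothelial markers (Clec4g the brightest). They were 0.11 for Kupffer cell markers (Clec4f the brightest) and -0.029 for stellate cell markers (Dcn the brightest). Single members of these lists had larger changes. Marco, a macrophage receptor, changed by -0.73 with overlap between the groups, and Col1a1, a collagen chain, by -0.99 without overlap on its brightest probe and by -0.86 with overlap on another, none of them passing in limma. Alpha-class transferases are also made in kidney and intestine. Of the markers of those organs Fabp2, which liver also makes, was the brightest, Lct, Slc12a1, Umod and Vil1 were well above background on no array, and the median was -0.0021. The kidney markers Lrp2 and Aqp2 were well above background on all arrays and changed by 0.51 and 0.37, with overlap between the groups on these probes, and a second Lrp2 probe gave 0.46 without overlap. None passed in limma, and the part of this in the alpha-class changes was not tested.

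**Figure D4:**
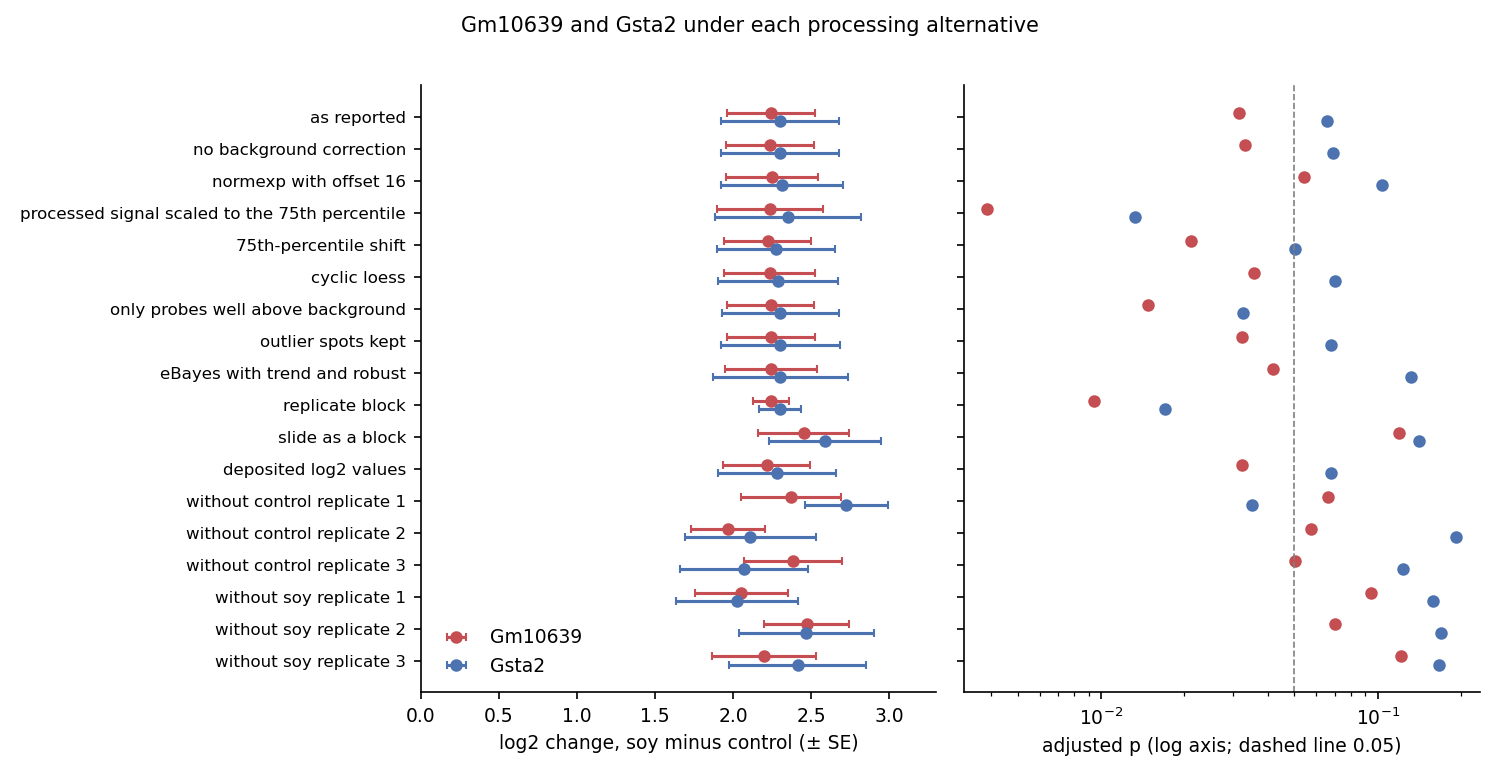
Change (log2, soy minus control, ± SE, left) and adjusted p (log axis, right, with a dashed line at 0.05) of Gm10639 and Gsta2 under each way of processing and with each array left out. The change of Gm10639 stayed between 1.97 and 2.47 and that of Gsta2 between 2.02 and 2.72, while the adjusted p of both probes fell on either side of the line.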

How the data were processed

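Total liver RNA of 6 mice was labelled with Cy3 and hybridized to Agilent G3 mouse arrays. The arrays' scanner files, as deposited by the authors, come from Feature Extraction 11.5.1.1 and give raw median intensities per spot, with the local background beside them. The files also hold a processed signal intensity, and the authors deposited a table of log2 values whose medians lie between 7.33 and 7.34. Its rows were matched by spot number, and its values differ from those computed here by at most 0.0561. How that table was background corrected and normalized is not stated.

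Median intensities were corrected with normexp (offset 50), quantile normalized between arrays and taken to log2. Outlier spots were dropped, then replicate spots were averaged per probe. Soy was compared with control over 56605 probes by limma 3.58.1 in R 4.3.3. The fit was tested on simulated data with known changes. A symbol was found for 32994 probes through RefSeq accessions of GRCm38.p6. The arrays' annotation names another build, so only promoter positions are given. Sequences and plots were made with Python 3.11.15, Biopython 1.88 and matplotlib 3.10.9.

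The genes named are every member, the pathway genes that passed (at most 5 per list), all NRF2 regulators and xenobiotic receptors, Gstm1, Gstm4, Gclc and Gclm, the 5 genes most like Gm10639, and of each cell type list its brightest gene and the undetected ones. Of these, 1 marker is not reported here. Some genes outside this rule are named to describe a list or its order on the chromosome. Gstm7, G6pdx, Hmox1, Sult2a1, S100a8, S100a9, Lrp2, Aqp2, Marco and Col1a1 were chosen after their values were seen. The members and the 18 lists were chosen with earlier results of these data known, and the lists come from general knowledge. The mice are separate animals. With 3 arrays per group, the number of arrays limits the precision. Alternatives were other background corrections, normalizations, signals, filters and variance models, a replicate or slide block, the deposited values, and each array left out in turn.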

Additional observations from a re-analysis of the deposited data

How the results depend on the processing

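Every change of an alpha-class probe kept its direction under all alternatives, and what varied was the side of the threshold. By limma, Gm10639 did not pass with a normexp offset of 16 (2.25, adjusted p = 0.0540) or with slide as a block (2.45, adjusted p = 0.120), and was 2.76 within slide 1. With 1 array left out it ranged from 1.97 to 2.47 and passed in no fit (adjusted p from 0.0501 to 0.121). Gsta2 ranged from 2.02 to 2.72 with 1 array left out, and passed without control 1 (2.72, adjusted p = 0.0351), among probes well above background only (2.30, adjusted p = 0.0325) and with the processed signal after 75th-percentile scaling, which replaces both signal and normalization (2.35, adjusted p = 0.0133). Over all alternatives its adjusted p ran from 0.0133 to 0.193. Gsta3 and Gsta4 passed in none of the alternative limma fits (0.27 to 0.37, 0.32 to 0.49 for the dimmer Gsta3 probe, and 0.25 to 0.81).

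The number of alpha-class probes that passed, 1 as reported, was 0 with offset 16 and with slide as a block, 2 among probes well above background only, 2 with the scaled processed signal, and 0 to 1 with 1 array left out (1 without control 1, which was Gsta2, and 0 in the other 5 fits). The number of pathway genes that passed, 9 as reported, was 2 with offset 16, 15 among probes well above background, 32 with the scaled processed signal, 0 with slide as a block and 0 to 7 with 1 array left out (7 without control 3, 1 without control 1 or control 2, and 0 in each fit without 1 soy array). Over all probes, the scaled processed signal gave a median change of 0.13 with 11924 higher and 1214 lower calls (90.8% higher, against 59.6% as reported). The 75th-percentile shift of the median signal alone also gave 0.13.

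With the replicate number as a replicate block, 2 alpha-class probes passed, Gsta2 with 2.30 (adjusted p = 0.0171 by limma) beside Gm10639, and 3 pathway genes passed. The deviations of arrays of the same number had correlations of 0.12, -0.060 and 0.097, small and of either sign, so the numbers were not taken as pairs. The positive values were those of arrays that share slide 1 or slide 3. Control 2 and soy 1, also on slide 1, had 0.078, and arrays on different slides had -0.21 to 0.10. The part of the slide in these correlations was not tested.

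Some small changes reversed. Alb became 0.0076 with the scaled processed signal and 0.033 with cyclic loess, and was -0.0078 after the 75th-percentile shift alone. Hba-a1 became -0.12 with slide as a block, -0.068 to 0.50 with 1 array left out (-0.068 without soy 2), -0.13 within slide 1 and -0.094 within slide 3. Clec4f ranged from -0.16 without control 1 to 0.37, with -0.016 without soy 3, and Rxra ranged from -0.099 to 0.021 with 1 array left out (0.021 without control 2) and was 0.042 within slide 3. Ahr ranged from -0.26 without control 3 to 0.25, with -0.0070 without soy 3 and -0.23 within slide 1. Ppara ranged from -0.12 without control 3 to 0.21, with -0.047 without soy 1, and Arnt -0.14 within slide 3. The medians of the stellate cell and of the kidney and intestine lists became 0.016 and 0.20 after the 75th-percentile shift, and 0.031 and 0.72 with the scaled processed signal. The cause was not tested. A start from the mean signal was planned and not run, since the files used here give the median signal.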
